A study of Mus musculus with 12 samples.

Results

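Ceacam1, Ceacam2 and Ceacam10 are 3 of the 21911 protein-coding genes of the GENCODE M21 annotation examined here, and all of them lie on mouse chromosome 7 (GRCm38, mm10). Their members were the listed peaks of histone H3 acetylated at lysine 9 (H3K9ac) that overlapped a gene body or the 5 kb on either side of its start. The 6 peak lists held 102889 peaks in all, of which 11 met this rule: 6 at Ceacam1, 5 at Ceacam2 and 0 at Ceacam10. The genes were chosen by a measured value, because the Ceacam1 start carries the B6-specific region with the highest fold enrichment of any gene start. The B6 and MSM values at Ceacam1 are therefore given as a description and were not tested.

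Each list came from the liver of 1 adult mouse, by chromatin immunoprecipitation with an antibody against H3K9ac and sequencing. C57BL/6J (B6), the strain of the reference genome, and MSM/Ms (MSM), an inbred strain from Japanese wild mice, had 2 libraries each. The reciprocal hybrids F1 BM (read here as B6 mother, MSM father) and F1 MB (read as MSM mother, B6 father) had 1 library each. No treatment separated the groups, and whole liver mixes hepatocytes with other cells, so that fewer cells of a type and less acetylation per cell cannot be told apart.

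H3K9ac is deposited by acetyltransferases at the starts of transcribed genes and is removed by deacetylases, so that a peak at a start is a common mark of an active promoter. The Ceacam genes encode glycoproteins of the carcinoembryonic antigen family, built of immunoglobulin-like domains. CEACAM1 is a transmembrane adhesion protein of the hepatocyte canalicular membrane that the insulin receptor phosphorylates and that promotes insulin clearance by the liver. CEACAM2 is its closest mouse relative, a transmembrane protein studied for its part in energy balance, and CEACAM10 is a secreted member of the family that has no membrane anchor.

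The beginnings of the 3 genes are near-copies of one another in the reference genome, and the first 200 bases of intron 1, where most summits lay, are shown for that reason. They are read from the GRCm38 sequence, 5′ to 3′ on each gene's own strand, at chr7:25477271-25477470 (minus) for Ceacam1, chr7:25539501-25539700 (minus) for Ceacam2 and chr7:24777340-24777539 (plus) for Ceacam10. Capitals mark the bases of Ceacam1 and Ceacam2 that differ between these genes, and the bases of Ceacam10 that are substituted or inserted against Ceacam1.
Ceacam1: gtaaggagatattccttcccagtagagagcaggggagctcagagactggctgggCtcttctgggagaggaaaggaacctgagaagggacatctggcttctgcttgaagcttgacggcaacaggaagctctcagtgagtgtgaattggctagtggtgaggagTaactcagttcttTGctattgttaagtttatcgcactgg
Ceacam2: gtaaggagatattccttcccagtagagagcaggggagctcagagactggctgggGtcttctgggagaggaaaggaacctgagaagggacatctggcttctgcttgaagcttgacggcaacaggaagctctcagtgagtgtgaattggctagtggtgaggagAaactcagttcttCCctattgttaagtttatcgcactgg
Ceacam10: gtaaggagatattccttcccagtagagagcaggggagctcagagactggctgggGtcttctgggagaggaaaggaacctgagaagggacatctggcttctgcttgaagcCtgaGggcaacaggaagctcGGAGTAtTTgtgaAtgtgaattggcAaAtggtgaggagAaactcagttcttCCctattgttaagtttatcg
Ceacam2 differed from Ceacam1 at 4 of these 200 bases, whereas 17 bases of Ceacam10 were substituted or inserted. These are sequences of the reference strain, and the MSM sequence of the locus was not analysed here.

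The bases before the start are shown for Ceacam1, whose B6 peaks reached into them, and for Ceacam10, which resembles it there and had no peak. They are the 250 bases upstream of the RefSeq start (GRCm38.p6), at chr7:25477626-25477875 (minus) for Ceacam1 and chr7:24776917-24777166 (plus) for Ceacam10. Capitals mark the E-box CACGTG, the element read by the USF factors.
Ceacam1: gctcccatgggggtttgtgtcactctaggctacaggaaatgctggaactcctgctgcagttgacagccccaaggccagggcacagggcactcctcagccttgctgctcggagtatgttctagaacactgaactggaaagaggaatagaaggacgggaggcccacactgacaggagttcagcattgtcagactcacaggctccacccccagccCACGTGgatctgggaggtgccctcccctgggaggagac
Ceacam10: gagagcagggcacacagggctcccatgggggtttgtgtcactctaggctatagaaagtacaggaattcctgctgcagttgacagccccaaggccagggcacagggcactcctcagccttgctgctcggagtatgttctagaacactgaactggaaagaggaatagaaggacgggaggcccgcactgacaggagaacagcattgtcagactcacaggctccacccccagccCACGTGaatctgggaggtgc
In these 250 bases, 95.7% of the aligned bases of Ceacam1 and Ceacam10 were identical, with 36 bases in gaps. The gaps come from the unequal places of the RefSeq starts. The 250 bases upstream of the start codon aligned with 0 bases in gaps, and 93.6% of them were identical. The E-box CACGTG reads the same on both strands. It began 38 bases before the RefSeq start of Ceacam1 and 20 bases before that of Ceacam10. Of 27025 mouse promoter windows of 300 bases (250 before to 50 after the RefSeq start), 7.24% hold it, and the Ceacam2 window does not. Counted from the start codon, each of the 3 genes has it once in the preceding 500 bases, beginning 129 bases upstream in Ceacam1 and Ceacam10 and 125 bases upstream in Ceacam2. None of the other motifs searched, on both strands, was in any of the 3 genes' promoter windows of 300 bases. These were the TATA box (TATAAA, in 14.2% of all promoters), the CCAAT box (CCAAT, in 37.9%), the GC box (GGGCGG, in 35.9%) and an element of the hepatocyte factor HNF4 (CAAAGTCCA, in 0.477%). They also included an element of the C/EBP factors (TTGCNNAA, in 10.8%), an interferon regulatory factor element of GAAA repeated after any 2 bases (in 3.49%), a PPAR element of AGGTCA repeated after any 1 base (in 0.0444%) and an HNF1 element of GTTAAT followed after any 1 base by ATTAAC (in 0.0074%). The absence of a motif says only that these letters are not in the window.

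At the Ceacam1 start H3K9ac was high in both B6 livers, listed in both hybrids and not listed in either MSM liver. Ceacam1 (ENSMUSG00000074272.10, minus strand, 8 exons) spans chr7:25461707-25477603. In B6 replicate 1 a single peak of 1687 bp (chr7:25476083-25477769) had a fold enrichment of 17.4, which is the height of its summit relative to the background of the authors' peak caller, and a −log10 q of 90.6. In B6 replicate 2 the peak was 912 bp long (chr7:25476760-25477671), with a fold of 11.05 and a −log10 q of 35.4. Both lay near the top of their lists, at rank 191 of 22968 peaks and rank 106 of 11619 peaks by fold. MSM replicate 1 and MSM replicate 2 had no peak in the gene body or within 5 kb of the start.

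In the F1 BM liver the main Ceacam1 peak was 1327 bp long (chr7:25476357-25477683), with a fold of 8.41, a −log10 q of 54.8 and rank 402 of 20173. A second, weaker F1 BM peak of 264 bp in intron 2 had a fold of 3.06. In the F1 MB liver the acetylated stretch was listed as a pair of peaks, 1 of 335 bp with its summit in the first part of intron 1 and a fold of 5.67, and 1 of 550 bp further into intron 1 with a fold of 6.51. By fold, the F1 MB peak further into intron 1 ranked 2445 of 13235 and the one nearer the start 3747. By −log10 q their order was the reverse, with 12.9 further in and 17.5 nearer the start. Within its list, the highest fold of Ceacam1 thus had a percentile of 98.0 for F1 BM and 81.5 for F1 MB, beside 99.2 and 99.1 for the B6 replicates. The F1 MB peak nearer the start had a percentile of 71.7.

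**Figure D1:**
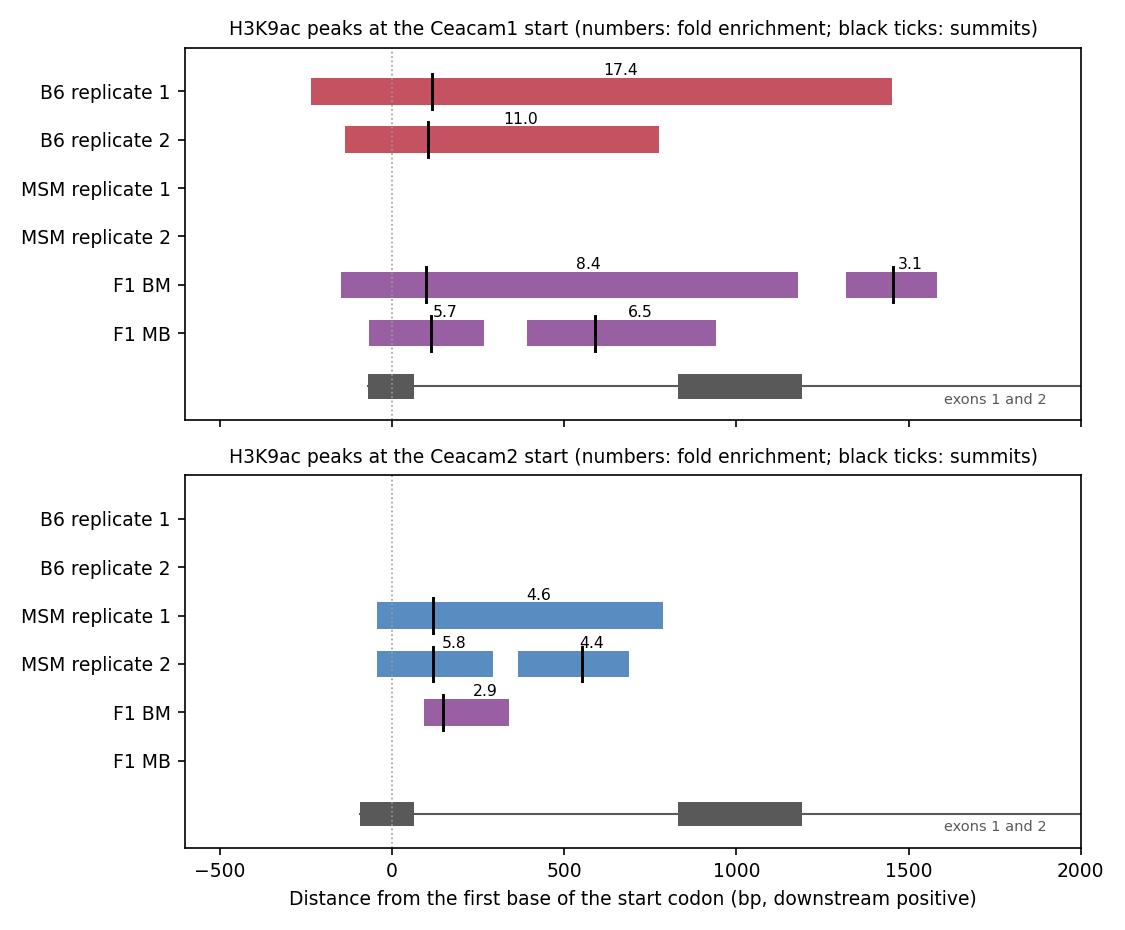
Listed H3K9ac peaks at the starts of Ceacam1 and Ceacam2 in each library, by distance from the first base of the start codon in bp. Bars span the peaks, black ticks are summits, numbers are fold enrichments and grey boxes are exons 1 and 2. Ceacam1 has bars in the B6 and F1 rows and none in the MSM rows, whereas Ceacam2 has bars in the MSM rows and F1 BM only.

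At the Ceacam2 start the strains stood the other way round, and the peaks were weak. Ceacam2 (ENSMUSG00000054385.14, minus strand, 7 exons) spans chr7:25516042-25539857, and its start lies 62254 bp from that of Ceacam1, with 38438 bp between the gene bodies. In MSM replicate 1 a peak of 831 bp (chr7:25538977-25539807) had a fold of 4.62 and a −log10 q of 9.93. In MSM replicate 2 a pair of peaks covered the same stretch, with folds of 5.78 over 338 bp (chr7:25539471-25539808) and 4.44 over 321 bp (chr7:25539078-25539398). The F1 BM list had a single peak of 248 bp (chr7:25539425-25539672) with a fold of 2.91 and a −log10 q of 5.66. B6 replicate 1, B6 replicate 2 and F1 MB had none. MSM replicate 1 also had a short peak of 291 bp in the untranslated part of exon 7 of Ceacam2, with a fold of 3.12, that no other list held. The annotated antisense transcript 4732471J01Rik (plus strand) overlaps both Ceacam1 and Ceacam2, and a peak carries no strand.

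Ceacam10 (ENSMUSG00000054169.7, plus strand, 4 exons) spans chr7:24777206-24784657, 700397 bp from the Ceacam1 start when starts are compared. It had no listed peak in any of the 6 livers, as did 54.2% of all gene starts in the narrower window of 1 kb either side. Within the Ceacam and Psg families, the other 25 annotated genes also had no start peak in any list.

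Because the lists differed in size and in fold, each start was also read against its own list. The reference was the median fold over the 5166 gene starts with a peak in all 6 lists, which was 9.11 for B6 replicate 1, 5.24 for B6 replicate 2, 6.72 for MSM replicate 1, 6.80 for MSM replicate 2, 4.39 for F1 BM and 5.64 for F1 MB. The Ceacam1 fold was 1.91 and 2.11 times the reference in the B6 lists, 1.92 times for F1 BM and 1.15 times for F1 MB. On this scale the F1 BM value lay between the B6 values and the F1 MB value lay below them. With 1 library per cross the difference between the hybrids has no replicate check. The Ceacam2 fold was 0.688 and 0.849 times the reference in the MSM lists and 0.663 times in F1 BM. By the highest peak within 1 kb of the start, the listed Ceacam2 values were thus under the reference and the listed Ceacam1 values over it, the B6 ones being those the genes were chosen by.

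**Figure D2:**
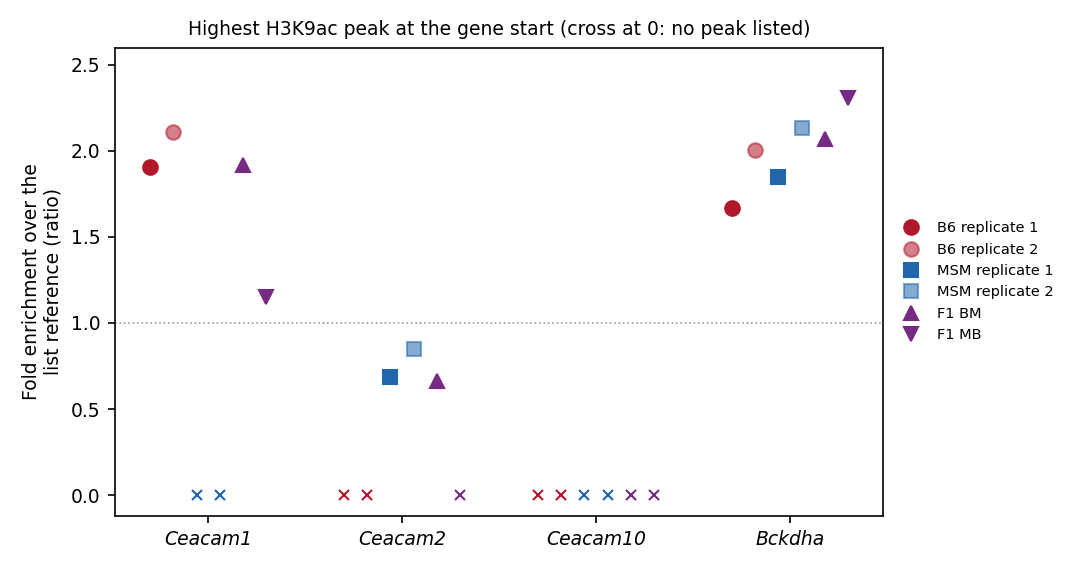
Fold enrichment of the highest peak within 1 kb of the gene start, divided by the reference of the same list (a ratio), for the 3 Ceacam genes and for the neighbouring gene Bckdha. Each symbol is 1 library, crosses at 0 mark starts with no listed peak, and the dotted line marks the reference. Ceacam1 and Ceacam2 each lack symbols in the strain where the other has them, whereas Bckdha has a symbol above the line in each of the 6 libraries.

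The length covered by peaks was also summed over the window of each gene. Ceacam1 had 1687 and 912 bp covered in the B6 livers, which is 1299.5 ± 548 bp (SD, n = 2), 0 bp in both MSM livers, 1591 bp for F1 BM and 885 bp for F1 MB. Ceacam2 had 0 bp in both B6 livers, 1122 and 659 bp in the MSM livers (890.5 ± 327 bp, SD, n = 2), 248 bp for F1 BM and 0 bp for F1 MB. The strains did not overlap at Ceacam2, a pattern that 0.292% of all gene starts had by presence of a peak, and the B6 mean minus the MSM mean was -890.5 bp. For this difference the exact permutation test (two-sided, 4 parental libraries) gave p = 0.333, the smallest p that 2 libraries against 2 allow, so the design cannot reach 0.05 for a single gene. Ceacam10 had 0 bp in each library, and the same exact test gave p = 1.

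Whether a peak lay in both libraries of 1 strain and in neither of the other was therefore counted over all gene starts. A start was B6-specific when both B6 lists and neither MSM list had a peak within 1 kb, which held for Ceacam1 and for 185 starts in all, or 0.844% of 21911. The opposite, MSM-specific class held Ceacam2 and 64 starts in all, or 0.292%. The balance of the classes turned round when each list was limited to the same covered length, with 169 B6-specific and 306 MSM-specific starts. Ceacam1 was chosen on the first class, so nothing is read from its place in it. Among 340 B6-specific merged regions at a gene start, ordered by the lower of the B6 folds, the Ceacam1 region stood first with 17.4 and 11.05. The next was Cyp2b9, a cytochrome P450 gene, with 8.41 and 8.37. With every list limited to the same number of peaks, or to the same covered length, Ceacam1 stood second, behind a region shared by Glt1d1 and Slc15a4.

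Pairs of a B6-specific and a nearby MSM-specific start were counted after the values were seen, with no other list size tried. Of the 185 B6-specific starts, 3 (1.62%) had an MSM-specific start within 100 kb. Ceacam1 with Ceacam2 was the widest of these pairs, after Slc22a18 with Phlda2 at 29414 bp and Gga2 with Cog7 at 39511 bp.

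The hybrids were not used in choosing the genes. Ceacam1 had a peak in both F1 lists, as did 51 of the 185 B6-specific starts (27.6%, exact Clopper-Pearson 95% interval 21.3 to 34.6, counting error only). Another 56 of these starts had a peak in F1 BM only, 9 in F1 MB only and 69 in neither. Ceacam2 had a peak in F1 BM and not in F1 MB, as did 18 of the 64 MSM-specific starts (28.1%, interval 17.6 to 40.8), while 12 had both, 34 had neither and 0 had F1 MB only. Many other starts of each class thus had the same hybrid pattern as the Ceacam gene in it. The F1 MB list was smaller than the F1 BM list (13235 and 20173 peaks), and the part of list size in the missing F1 MB peak at Ceacam2 was not tested. The F1 BM peak at Ceacam2 was itself not kept when the lists were limited to the same number of peaks or the same covered length.

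The summits of both genes lay in the first part of intron 1. The Ceacam1 summits nearest the start in B6 replicate 1, B6 replicate 2, F1 BM and F1 MB lay 185, 173, 167 and 181 bp downstream of the annotated start, within 18 bp of one another. The Ceacam2 summits in MSM replicate 1, MSM replicate 2 and F1 BM lay 211, 213 and 240 bp downstream of its start, within 29 bp of one another. Counted from the first base of the start codon, which removes the unequal untranslated ends, the distances were 116, 104, 98 and 112 bp for Ceacam1 and 118, 120 and 147 bp for Ceacam2. The second summits in intron 1 were also close, at 589 bp in F1 MB for Ceacam1 and 551 bp in MSM replicate 2 for Ceacam2. At both genes the acetylation was thus listed at like distances into intron 1, which is 767 bp long in each.

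The B6 replicate 1 peak at Ceacam1 covered 166 bp upstream of the gene, all 133 bp of exon 1, all 767 bp of intron 1, all 360 bp of exon 2 and 261 bp beyond. The B6 replicate 2 peak was confined to 68 bp upstream, exon 1 and 711 bp of intron 1. The F1 BM peak covered 80 bp upstream, exon 1, intron 1 and 347 bp of exon 2. At Ceacam2 the MSM replicate 1 peak covered 107 bp of exon 1 and 724 bp of intron 1, and no Ceacam2 peak reached upstream of the gene. The Ceacam1 peaks of B6 replicate 1 and F1 BM thus extended past both ends of the stretch listed at Ceacam2.

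The genes share this stretch almost base for base in the reference. Intron 1 of Ceacam1 and Ceacam2 aligned without gaps and was identical at 743 of 767 bases (96.9%). Identity was 95.3% over the coding part of exon 1, also without gaps. Of the aligned bases, 90.0% were identical over the 250 bases before the start codon (18 in gaps, 83.8% with gaps counted) and 94.4% over the 1000 bases upstream (58 in gaps, 89.1% with gaps counted). In exon 2, which codes for the first immunoglobulin-like domain, it was 79.2% (10 in gaps, 77.0% with gaps counted). Ceacam10 was 96.9% identical to Ceacam1 over the coding part of exon 1, 92.0% over intron 1 (35 in gaps, 87.9% with gaps counted) and 81.4% over exon 2, without gaps. Over the B6 replicate 2 peak 95.3% of the bases of Ceacam1 were identical to Ceacam2, and over the longer B6 replicate 1 peak 90.6%. Each Ceacam1 summit near the start aligned with the same distance from the start codon in Ceacam2.

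**Figure D3:**
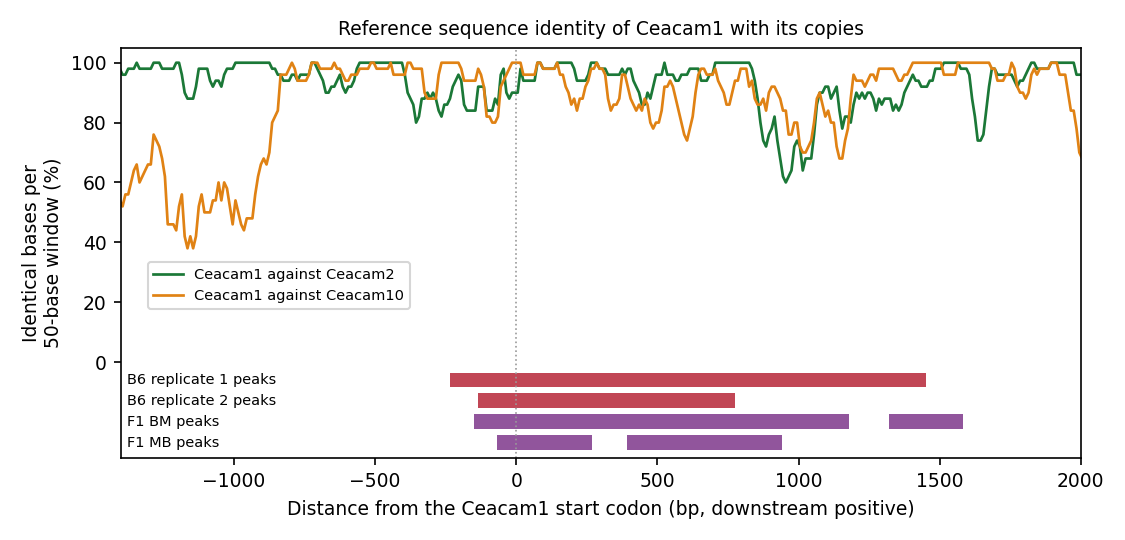
Percentage of identical bases between Ceacam1 and its copies in 50-base windows of the reference genome, by distance from the Ceacam1 start codon in bp. Lines compare Ceacam1 with Ceacam2 (green) and Ceacam10 (orange), and bars under them span the listed Ceacam1 peaks (red, B6; purple, F1). The lines vary under the peaks and both dip in exon 2, where 79.2% (Ceacam2) and 81.4% (Ceacam10) of the aligned bases were identical.

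Because the reads were 50 bases long, exact copies of 50-base windows were counted. Of the 1952 windows of 50 bases within 1 kb of the Ceacam1 start, 62.3% occurred once in chromosomes 1 to 19, X and Y, counting exact matches on both strands. Of the 735 that occurred more than once, 565 were found in Ceacam2, 266 in Ceacam10, 97 of these in both, and 1 in neither. The shares were 67.2% at the Ceacam2 start and 84.1% at the Ceacam10 start. Over the 21908 other gene starts the median share was 100%, and 6.57% of them had a lower share than Ceacam1, 7.07% a lower share than Ceacam2 and 10.4% a lower share than Ceacam10. A share at or below that of Ceacam1 was found at 17 of the 185 B6-specific starts (9.19%, Ceacam1 itself included), 3 of the 64 MSM-specific starts (4.69%) and 40 of the 5579 starts with a peak in all 4 parental lists (0.717%). A share at or below that of Ceacam2 was found at 5 of the 64 MSM-specific starts (7.81%, Ceacam2 itself included), 18 of the 185 B6-specific starts (9.73%) and 7.09% of all starts.

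The summits of the 2 genes differed in this respect. Of the 50 windows that cover a summit, 48 occurred once in the genome for B6 replicate 1 at Ceacam1, 36 for B6 replicate 2, 30 for F1 BM and 44 for F1 MB. At Ceacam2 it was 0 of 50 for MSM replicate 1, for the summit nearest the start in MSM replicate 2 and for F1 BM, whereas 49 of 50 did so at the second summit of MSM replicate 2. The Ceacam2 summits nearest the start thus lay where each 50-base window has an exact copy elsewhere in the reference, and those of Ceacam1 lay mostly where it has none. In the intron sequences above, the first base that differs between Ceacam1 and Ceacam2 is G in both Ceacam2 and Ceacam10. Ceacam1 windows centred 93 to 142 bp from the start codon each occurred once. At the MSM summits nearest the start, 118 and 120 bp from the start codon, the copies were thus mostly in Ceacam10 and not in Ceacam1. Ceacam10 had no listed peak. Ceacam1 windows centred 143 to 199 bp from the start codon each occurred more than once. At the F1 BM summit, 147 bp from the start codon, most windows were thus also shared with Ceacam1. The second member of a read pair can also place a read, and how the authors placed reads with several positions was not given in the sources used here. The part of read placement in the opposite patterns of Ceacam1 and Ceacam2 was not tested.

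The genes around the pair were also examined. Of 8 other protein-coding genes near them, Bckdha, which encodes a subunit of the branched-chain keto acid dehydrogenase, had a start peak in all 6 lists at percentiles of 98.0 to 99.5. Dmac2 had one in 5 lists, all but F1 MB. The other 6 (Tmem145, Cnfn, Lipe, Cxcl17, Erich4 and B3gnt8) had none. None of the 8 was B6-specific or MSM-specific at its start, beside 0.844% and 0.292% of all starts, so a count of 0 says little about these neighbours. A peak about 82 kb downstream of the Ceacam1 start, inside Lipe, the hormone-sensitive lipase gene, was listed in all 4 parental livers, with folds of 7.67 and 4.19 in B6 and 4.19 and 4.67 in MSM, and in neither hybrid. The 6 genes beside Ceacam10, which are BC049730, Gm4763, Cd177, Gm9844, Lypd4 and Dmrtc2, had no start peak in any list.

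**Figure D4:**
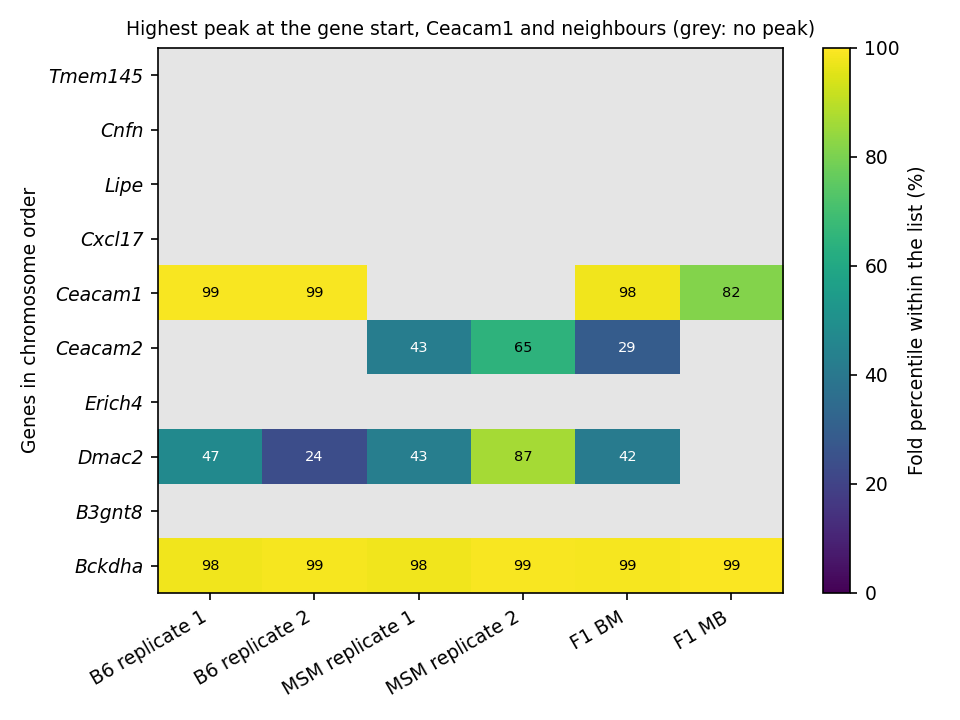
Percentile of fold within its own list (colour, in %) of the highest peak within 1 kb of the start of Ceacam1, Ceacam2 and 8 neighbours, in chromosome order, for the 6 libraries. Grey cells had no listed peak. Ceacam1 and Ceacam2 have opposite grey cells in the B6 and MSM columns, and Bckdha is filled in each column.

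Of 13 genes of the pathways that Ceacam1 belongs to, 8 had a start peak in all 6 lists and 3 in none. Over all 21911 starts, 5166 had a peak in all 6 lists and 54.2% had none in any. Of 9 signalling partners and targets, Insr (the insulin receptor), Shc1 (its adaptor), Fasn (fatty acid synthase) and Egfr (the epidermal growth factor receptor) had a peak in all 6 lists. Ptpn11, a phosphatase bound by CEACAM1, had one in 5 lists, and the related phosphatase Ptpn6 in B6 replicate 1, MSM replicate 2 and F1 BM. Src, Havcr2 and Flna had none. Ppara, Irf1, Usf1 and Sp1, transcription factors linked to the Ceacam1 promoter, each had a peak in all 6 lists. None of these 13 genes was B6-specific or MSM-specific, so 0 of 13 stand beside 0.844% and 0.292% of all starts.

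The starts whose fold percentiles were most like those of Ceacam1 over the 6 lists were Kng2 (a kininogen gene), Srp54b, Ppil1, Ap1ar and H2-K1, by Euclidean distance with a missing peak set to 0. Their distances ranged from 18.6 to 32.6 percentile points. All of them had peaks in both B6 and both F1 lists, and Ap1ar also had one in MSM replicate 2. Most like Ceacam2, a choice made after its values were seen, were Trib2, Utp14a, Tlr6, Ugt1a10 and Pdcl, at 17.1 to 20.9 percentile points. Of these, Ugt1a10 had peaks in the same 3 lists as Ceacam2, while each of the other 4 had a peak in 1 further list.

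The lists held 22968 and 11619 peaks in B6, 17310 and 17584 in MSM, 20173 for F1 BM and 13235 for F1 MB, covering 6.28 to 16.0 Mb. Read counts are not part of the lists, the depth behind each peak was not used here, and a peak that is not listed cannot be told apart from one too weak for its library. Markers of hepatocytes had start peaks in all 6 lists for 7 of 8 genes, and those of Kupffer cells had none in any list (0 of 5). Markers of the endothelium, where Ceacam1 is also made, had start peaks at 3 and 0 of 5 genes in the B6 lists, 2 and 4 in the MSM lists, 4 for F1 BM and 0 for F1 MB. Stellate cells, bile duct and other leukocytes each had 1 marker with a peak in 1 list. Of all gene starts, 44.2% and 27.9% had a peak in the B6 lists and 35.5% and 36.2% in the MSM lists. The shares were 35.3% for F1 BM and 31.7% for F1 MB, and 54.2% of all starts had no peak in any list. With so few markers per cell type, such counts say little beside these shares. The endothelial count was lowest in B6 replicate 2 and F1 MB, which have the shortest lists and the lowest shares over all starts. Both have the Ceacam1 peak, and the part of the endothelium in the Ceacam values was not tested.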

How the data were processed

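The authors sequenced H3K9ac libraries from liver as paired reads of 50 bp, trimmed adaptors and mapped them to mm10 (GRCm38). The study's methods name Bowtie 2 for the mapping, whereas the submitters' processing notes list Trim Galore, HISAT2, SAMtools and MACS2. The peak threshold and the use of the inputs as control are not given in the sources used here. The 6 input libraries were not analysed here. The deposited files were 6 narrowPeak lists, 1 per library, with no pooling of replicates. Each peak had a fold enrichment, a linear ratio from the authors' peak caller, the −log10 of its p-value and q-value as deposited, and a deposited score, derived from the −log10 q and not used. These values ranked and described peaks, and no counts were tested, so no interval or limit from depth could be given. Reads of all strains were mapped to the B6 sequence.

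Groups and replicate numbers came from the sample titles. The genes and gene lists were chosen with earlier results of these data known. Genes were protein-coding GENCODE M21 genes with 1 start each (the end of the gene body on its 5′ side), and a start had a peak when a listed peak overlapped its window of 1 kb either side by at least 1 bp. For the 3 genes the window was the gene body plus 5 kb either side of the start. Fold percentiles were taken within each list. Named genes were the 3 Ceacam genes, their neighbours, the family and pathway lists, the next B6-specific regions and the 5 starts nearest in pattern. A few listed genes are not reported here. Parental covered lengths were compared by an exact two-sided permutation test over 6 assignments. Counting of strain-specific starts was tested on simulated lists of 4000 starts, where 200 of 200 planted starts were recovered with 0 false calls. In that simulation every other start had a peak in each list and no peak was missed at random. It therefore checked the counting only and gives no rate of false calls for the real lists. Promoters came from RefSeq (GRCm38.p6), aligned with Biopython 1.88, and 50-base windows were counted exactly in the genome. Python 3.11.15, numpy 2.4.6, scipy 1.17.1 and matplotlib 3.10.9 were used. Alternatives were other list sizes, a −log10 q of at least 5, an overlap of 200 bp, a window of 2.5 kb, windows of 36 and 100 bases and leaving out each parental library.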

Additional observations from a re-analysis of the deposited data

How the results depend on the processing

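Ceacam1 was B6-specific and Ceacam2 MSM-specific at the start under every alternative run, and Ceacam10 had no peak in any. No alternative could add a peak where the window of 5 kb either side held none. Only a loss of listed peaks could have changed these calls, and Ceacam1 was chosen on this contrast. Without 1 parental library at a time, the covered length of Ceacam1 in B6 minus MSM ranged from 912 to 1687 bp and that of Ceacam2 from -1122 to -659 bp. The ends of these ranges are the values of single libraries. The counts over all starts moved more. With the same number of peaks in each list there were 378 B6-specific and 198 MSM-specific starts, 85 of the B6-specific ones had a peak in both hybrids, and the Ceacam1 region ranked 2. With the same covered length there were 169 B6-specific and 306 MSM-specific starts, so that the balance of the classes turned round, and the rank was again 2. Leaving out 1 library gave 190 to 1364 B6-specific starts (1364 without B6 replicate 2, 352 without MSM replicate 1, 367 without MSM replicate 2) and 65 to 1562 MSM-specific starts (1562 without B6 replicate 1, 166 without MSM replicate 1, 141 without MSM replicate 2). The B6-specific starts with a peak in both hybrids then numbered 51 to 144 (110 without B6 replicate 2, 129 without MSM replicate 1, 144 without MSM replicate 2). A strain left with 1 library sets a looser rule. The share of windows at the Ceacam1 start found once was 84.4% for 100 bases and 50.4% for 36 bases, since longer words are rarer. The labels number the replicates of B6 and MSM alike, but these are separate mice, and blocking by the replicate number, a pairing of numbers only, left the Ceacam2 difference at -890.5 bp with an exact p of 0.5, the smallest that 2 pairs allow, and Ceacam10 at 0 bp with p = 1.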
